A study of Mus musculus with 8 samples.

Results

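The antioxidant enzymes are 10 genes of the mouse brain: the peroxiredoxins Prdx1, Prdx2, Prdx3, Prdx5 and Prdx6, the superoxide dismutases Sod1 and Sod2, the glutathione peroxidases Gpx1 and Gpx4, and thioredoxin, Txn1. They were chosen by name, and all 10 were found, each once, among the 22430 genes of the deposited count table. The study asked how RNA in the brain differs between young adult and old mice. RNA came from a brain hemisphere of 8 male mice of the inbred strain C57Bl/6JRj, 4 aged 6 months (6m) and 4 aged 24 months (24m), with 1 library per mouse and no treatment named in the labels. By the study's methods the RNA strands themselves were read through nanopores, so that a read stands for a molecule; the labels name a kit for polyA+ RNA instead. The libraries held 843706, 573152, 838483 and 818963 counts at 6m (replicates 1 to 4) and 660398, 903595, 742951 and 1255424 counts at 24m.

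Superoxide dismutases turn superoxide, which leaks mainly from mitochondrial respiration, into hydrogen peroxide, and peroxiredoxins, glutathione peroxidases and catalase then break the peroxide down. Peroxiredoxins are recharged by thioredoxin and glutathione peroxidases by glutathione, both with electrons that come from NADPH. Brain tissue uses much oxygen and is rich in lipids that peroxides attack, and loss of Gpx4 or Sod2 in mice is lethal.

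Library 24m replicate 1 stood apart from the other 24m libraries. On the first principal component of log2 CPM (counts scaled by library totals, which were corrected by the TMM method), which held 39.4% of the variance, the 6m libraries lay between -27.8 and -21.2 and the 24m libraries between 17.9 and 32.6. On the second, with 17.2% of the variance, 24m replicate 1 lay at 38.4, while the other 24m libraries lay between -17.5 and -6.15 and the 6m libraries between -9.27 and 7.48. Values of the antioxidant enzymes that moved most with this library are given with and without it.

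None of the 10 antioxidant enzyme genes passed the test for a difference between 24m and 6m: 0 were changed by edgeR and 0 by DESeq2. Changed means an adjusted p of at most 0.05 (Benjamini-Hochberg, over all 9375 genes tested) and a log2 fold change (log2FC, 24m over 6m) of at least 0.58 in size, a fold of 1.49. By the same edgeR test 14.5% of all genes tested were changed, 10.3% higher and 4.17% lower at 24m. DESeq2 on raw counts called 834 of the same 9375 genes changed. At an adjusted p of at most 0.05 alone, the count was 0 of 10 members beside 21.7% of all genes; at an unadjusted p under 0.05 it was 4 of 10 (Prdx2, Prdx6, Gpx1 and Gpx4), beside 34.3% of all genes. The fold changes were small: the 95% confidence intervals of all 10 lay inside a log2FC of 0.58 in either direction, reaching from 0.705-fold to 1.45-fold. Under 5 edgeR alternatives the upper bound of Prdx3 passed 0.58, at most 0.68 without 6m replicate 3. Intervals were not computed for the DESeq2 fits, where Prdx3 on raw counts had a log2FC of 0.23 (SE 0.18). The log2FC was negative for 7 members and positive for 3 (Prdx3, Prdx6 and Txn1), except that scaling by library sizes alone turned Prdx1 to 0.02 and quantile scaling turned Prdx5 to 0.04 and Sod1 to 0.02. Quantile scaling here and below means DESeq2 on quantile-normalized counts, so that the test changed together with the scaling. The median log2FC of the members was -0.14, beside -0.00337 for all genes tested. Among the 1587 genes tested whose mean count lay in the members' range (84.8 to 1136 per library), the median was -0.11 and the log2FC of 62.8% was negative. A hemisphere holds many cell types, so for every gene here fewer cells of a type and less RNA per cell cannot be told apart.

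Without 24m replicate 1, 5 of the 10 members had an adjusted p of at most 0.05, beside 26.8% of all genes; this count by adjusted p alone was chosen after seeing the data. Of these, 4 (Prdx2, Prdx5, Gpx1 and Gpx4) were lower at 24m, beside 12.2% of all genes, and 1 (Prdx6) was higher, beside 14.6%. No member reached the fold threshold in that edgeR fit, so 0 were changed there too, with 7 at an unadjusted p under 0.05, beside 37.5% of all genes. With all 8 libraries the 2 ages did not overlap for 2 members, Prdx6 and Sod1, beside 21.1% of all genes tested. Without 24m replicate 1, a comparison also chosen after seeing the data, they did not overlap for 7 (Prdx2, Prdx5, Prdx6, Sod1, Gpx1, Gpx4 and Txn1), beside 32.4%. For Txn1 the gap was very small, 138.3 CPM in 24m replicate 2 against 138.1 CPM in 6m replicate 4.

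**Figure D1:**
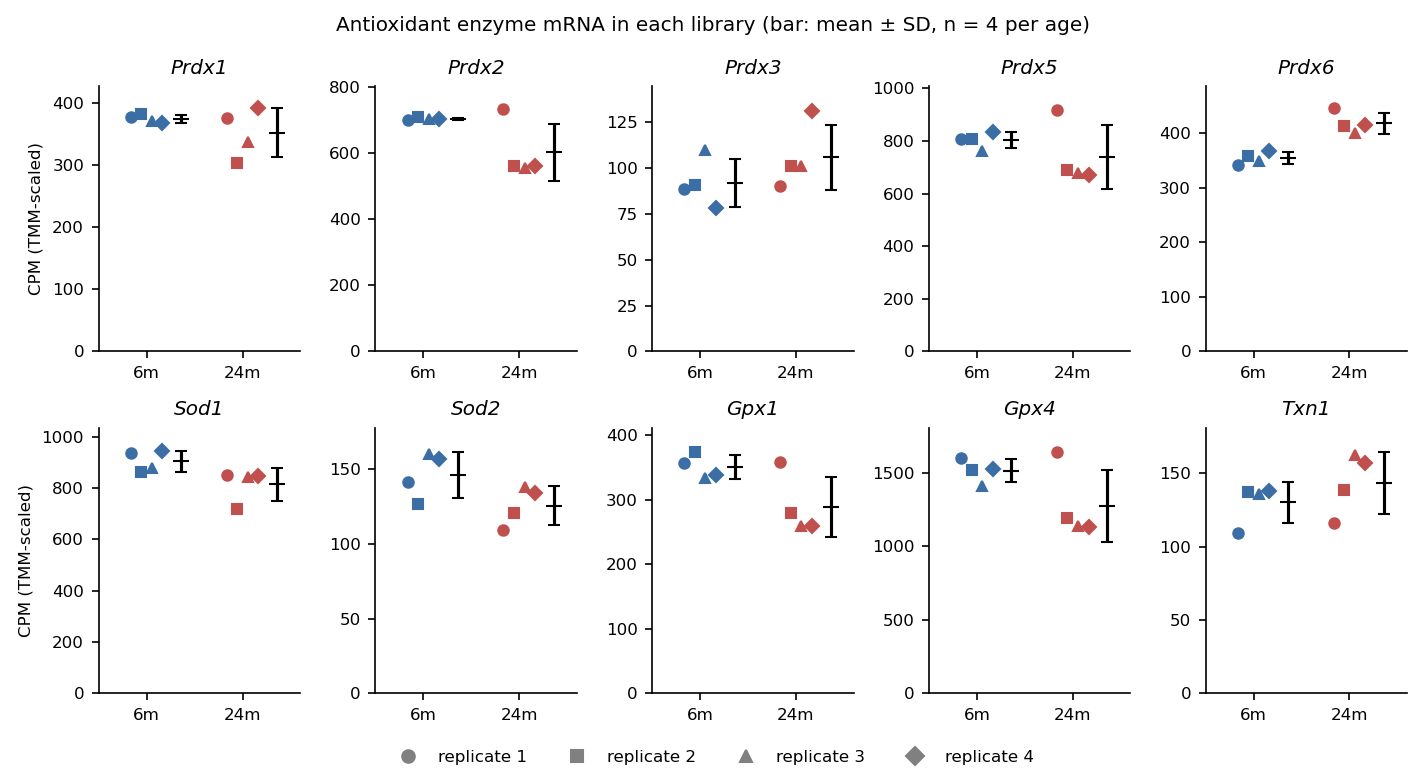
CPM of each antioxidant enzyme gene in the 8 libraries, with 6m and 24m mice side by side; bars show the mean and SD of each age (n = 4), and the axis starts at 0. For Gpx4, 24m replicate 1 stands at 1642 while the other 24m libraries lie between 1135 and 1191.

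Neither superoxide dismutase gene passed the test. Sod1, the copper and zinc enzyme of the cytosol (ENSMUSG00000022982, GRCm39 chr16:90017408-90027657, plus strand), stood at 934, 861, 877 and 944 CPM in 6m replicates 1 to 4 and at 851, 718, 842 and 845 CPM at 24m. Every 24m library was below every 6m library, and 24m replicate 2 was the lowest. The means were 904 ± 41.3 CPM (SD, n = 4) at 6m and 814 ± 63.9 CPM (SD, n = 4) at 24m. The log2FC was -0.15 (SE 0.09), with an adjusted p of 0.219 by edgeR; quantile scaling gave 0.02, and leaving out 24m replicate 2 gave -0.09. Sod2, the manganese enzyme of the mitochondrial matrix (ENSMUSG00000006818, chr17:13224095-13259591, plus strand), ranged from 127 to 161 CPM at 6m and from 109.7 to 138 CPM at 24m, so the ages overlapped. Its log2FC was -0.22 (SE 0.13; adjusted p = 0.227 by edgeR).

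The glutathione peroxidases carry selenocysteine in the active site, a residue encoded by TGA, which elsewhere ends translation. The codon is shown because the enzymes depend on it, in 30 bases of the coding strand of GRCm39 with the TGA in capitals; Gpx1 is from exon 1 (chr9:108216638-108216667, plus strand) and Gpx4 from exon 3 (chr10:79890559-79890588, plus strand).
Gpx1: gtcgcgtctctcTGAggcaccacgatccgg
Gpx4: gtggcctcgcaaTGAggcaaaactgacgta
Gpx1, which reduces hydrogen peroxide in cytosol and mitochondria (ENSMUSG00000063856, chr9:108216102-108217546, plus strand), stood at 357, 374, 334 and 338 CPM in the 6m libraries and at 358, 279.7, 259.8 and 259 CPM in the 24m libraries. At 24m, replicate 1 lay inside the 6m range and the other 3 libraries lay below it. The means were 351 ± 18.8 CPM (SD, n = 4) and 289 ± 47.0 CPM (SD, n = 4), with a log2FC of -0.29 (SE 0.11; adjusted p = 0.0553 by edgeR). Without 24m replicate 1 the log2FC of Gpx1 was -0.38 with an adjusted p of 0.00167, and over the 16 alternatives the adjusted p ran from 0.00167 to 0.2045. The fit with a replicate block gave Gpx1 an adjusted p of 0.0444.

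Gpx4, which reduces peroxides of membrane lipids (ENSMUSG00000075706, chr10:79883000-79892273, plus strand), stood at 1603, 1517, 1414 and 1526 CPM at 6m and at 1642, 1191, 1138 and 1135 CPM at 24m. Here 24m replicate 1 was the highest of all 8 libraries, and the other 3 of 24m were the lowest. The means were 1515 ± 77.5 CPM (SD, n = 4) at 6m and 1276 ± 244.8 CPM (SD, n = 4) at 24m. The log2FC was -0.25 (SE 0.10; adjusted p = 0.0821 by edgeR) with all libraries and -0.38 (adjusted p = 6.46e-05) without 24m replicate 1. Over the 16 alternatives its log2FC ran from -0.38 to -0.07 and its adjusted p from 6.46e-05 to 0.680. The fit with a replicate block gave Gpx4 an adjusted p of 0.0432. Both glutathione peroxidases kept nearly the same proportion to each other in every library: the log2 ratio of Gpx1 to Gpx4 counts lay between -2.19 and -2.02 over the 8 libraries, 24m replicate 1 included.

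The peroxiredoxins react with peroxide through a cysteine, which is shown because it is the residue that carries their catalysis. Each line gives 30 bases of the coding strand in GRCm39 with that codon in capitals: Prdx1 from exon 3 (chr4:116549008-116549037, plus strand), Prdx2 from exon 3 (chr8:85697100-85697129, plus strand) and Prdx6 from exon 2 (chr1:161074923-161074952, minus strand).
Prdx1: tttacttttgtgTGTcccacggagatcatt
Prdx2: ttcacttttgttTGCcccacggagatcatc
Prdx6: tttaccccagtgTGCaccacagaacttggc
Prdx2, a cytosolic peroxiredoxin that uses a second cysteine and thioredoxin (ENSMUSG00000005161, chr8:85693354-85702350, plus strand), stood at 699, 707, 703 and 701 CPM at 6m and at 732, 561, 554 and 561 CPM at 24m. The 6m libraries lay very close together, 24m replicate 1 lay above them and the other 3 of 24m well below. The means were 703 ± 3.43 CPM (SD, n = 4) and 602 ± 86.5 CPM (SD, n = 4), and the log2FC was -0.23 (SE 0.09; adjusted p = 0.0856 by edgeR). Without 24m replicate 1 the log2FC of Prdx2 was -0.32 with an adjusted p of 0.000936, and over the 16 alternatives the adjusted p ran from 0.000936 to 0.448.

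Prdx1, its close relative in the cytosol (ENSMUSG00000028691, chr4:116532123-116558398, plus strand), ranged from 368 to 382 CPM at 6m and from 304 to 391 CPM at 24m. The ages overlapped, and the log2FC was -0.09 (SE 0.10; adjusted p = 0.560 by edgeR), or 0.02 with library sizes alone and -0.02 without 24m replicate 2. Prdx5, found in mitochondria, peroxisomes and cytosol (ENSMUSG00000024953, chr19:6884065-6887792, minus strand), stood at 809, 806, 762 and 835 CPM at 6m and at 919, 689, 677 and 671 CPM at 24m. As for Gpx4, 24m replicate 1 was the highest of all 8 libraries and the other 3 of 24m lay below every 6m library. The log2FC of Prdx5 was -0.12 (SE 0.10; adjusted p = 0.394 by edgeR) with all libraries. It was -0.23 (adjusted p = 0.0120) without 24m replicate 1, -0.08 and -0.06 without 24m replicates 3 and 4, and 0.04 under quantile scaling; the adjusted p ran from 0.0120 to 0.876 over the 16 alternatives. Prdx3, the peroxiredoxin of the mitochondrial matrix (ENSMUSG00000024997, chr19:60852489-60863017, minus strand), ranged from 77.9 to 109.5 CPM at 6m and from 89.9 to 131 CPM at 24m. Its log2FC was 0.23 (SE 0.15; adjusted p = 0.309 by edgeR), or 0.11 without 24m replicate 4, and the ages overlapped.

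Prdx6 differs from the others in working with a single cysteine and glutathione, and it also has phospholipase activity; in brain it is known mainly from astrocytes. Prdx6 (ENSMUSG00000026701, chr1:161051417-161079098, minus strand) stood at 342, 358, 349.7 and 368 CPM at 6m and at 445, 413, 399 and 414 CPM at 24m. Every 24m library was above every 6m library, and 24m replicate 1 was the highest, so that this member was higher in 4 of 4 old mice. The means were 354 ± 11.1 CPM (SD, n = 4) and 418 ± 19.4 CPM (SD, n = 4), and the log2FC was 0.24 (SE 0.09, 95% interval 0.05 to 0.42). The adjusted p of Prdx6 was 0.0589 by edgeR, just over the threshold, and it ran from 0.00494 to 0.1495 over the 16 alternatives, with a log2FC from 0.22 to 0.34.

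Txn1 passes electrons from NADPH, by way of thioredoxin reductase, to the peroxiredoxins. Its active site is a pair of cysteines with a pair of residues between them, given in capitals in 30 bases of exon 2 (GRCm39 chr4:57951812-57951841, minus strand) to show the group that recharges the peroxiredoxin cysteines above.
Txn1: gctacgtggTGTGGACCTTGCaaaatgatc
Txn1 (ENSMUSG00000028367, chr4:57934208-57956424, minus strand) ranged from 109.5 to 138 CPM at 6m and from 116 to 163 CPM at 24m. The ages overlapped through 24m replicate 1 alone, since the other 3 of 24m lay above every 6m library. For 24m replicate 2 this was by very little, 138.3 CPM against 138.1 CPM in 6m replicate 4. The log2FC of Txn1 was 0.15 (SE 0.13; adjusted p = 0.443 by edgeR). It was 0.24 without 24m replicate 1, 0.08 without 6m replicate 1 and 0.10 without 24m replicate 3.

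**Figure D2:**
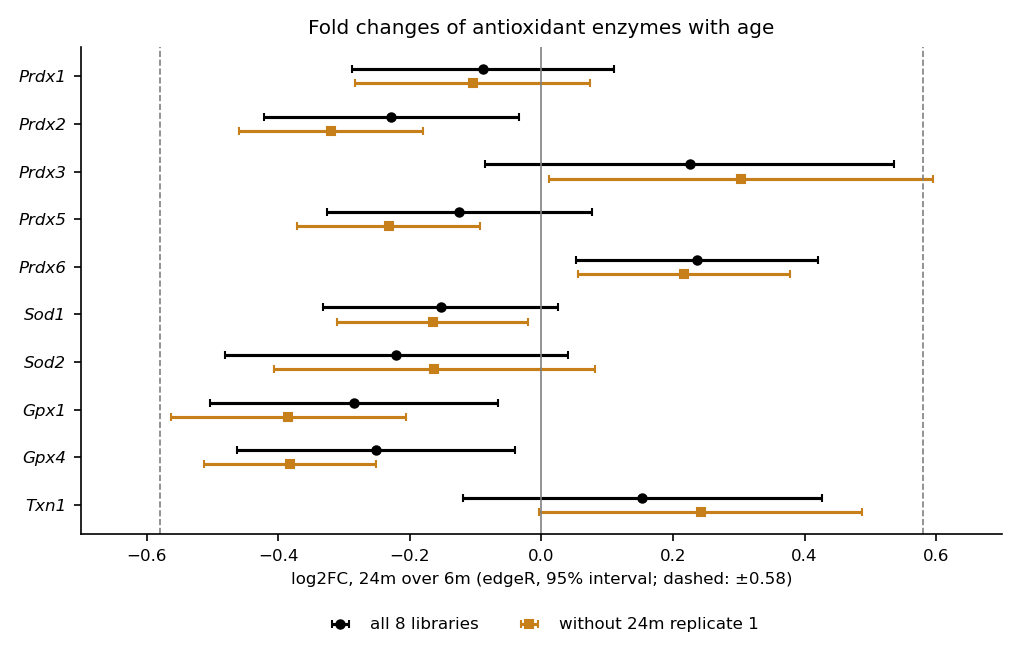
The log2 fold change (24m over 6m) of each antioxidant enzyme gene with its 95% confidence interval, from all 8 libraries and without 24m replicate 1; dashed lines mark a log2FC of 0.58 in either direction. With all libraries every interval lies inside the lines, and Gpx4 moves from -0.25 to -0.38 when the library is left out.

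The position of 24m replicate 1 differed between members. Against the mean of the other 24m libraries it was higher by 0.51 (log2) for Gpx4, 0.44 for Prdx5, 0.43 for Gpx1 and 0.39 for Prdx2, and it was different by -0.39 for Txn1, -0.29 for Prdx3 and -0.25 for Sod2. The same difference was 0.13 for Prdx1, 0.12 for Prdx6 and 0.09 for Sod1, with a median of 0.13 over the members and 0.01 over all genes tested. Across the 9334 tested genes with a coding length, that length had a Spearman correlation of -0.06 with this difference and -0.06 with the log2FC between ages (a description across genes, which are not independent replicates). The members' share of all counts was 0.526%, 0.517%, 0.4998% and 0.530% at 6m, and 0.560%, 0.481%, 0.485% and 0.488% at 24m. In 24m replicate 1 the share was above every 6m library, and in the other 3 it was below every one.

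**Figure D3:**
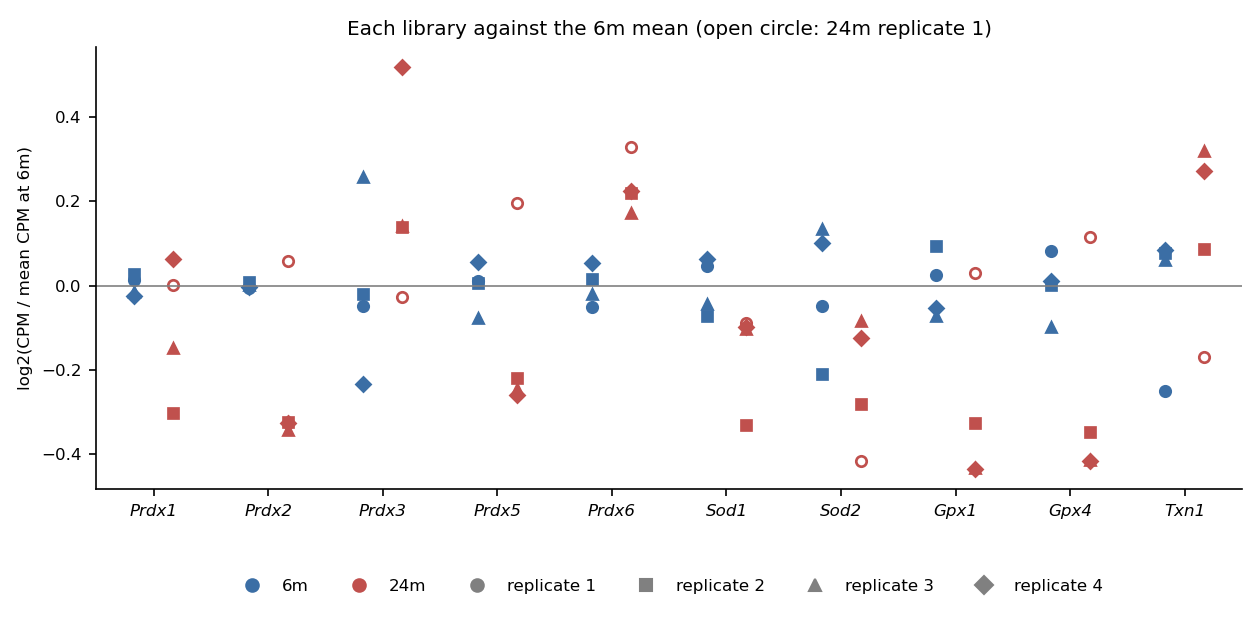
The log2 of each library's CPM over the mean CPM at 6m, for the 10 antioxidant enzyme genes; 24m replicate 1 is an open circle. For Gpx4, Prdx5, Prdx2 and Gpx1, 24m replicate 1 sits near or above the 6m libraries while the other 24m libraries sit below them.

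Ratios of members within a library, which do not depend on the scaling between libraries, were compared between ages by a two-sided exact permutation test over the 8 libraries, for 4 pairs of enzymes of one family. The log2 ratio of Prdx1 to Prdx2 was -0.91 ± 0.02 (SD, n = 4) at 6m and -0.77 ± 0.20 (SD, n = 4) at 24m, with an exact p of 0.286 (0.571 adjusted over the 4 ratios); the difference of 0.14 became 0.20 without 24m replicate 1 (adjusted p = 0.114) and 0.05 without 24m replicate 4 (adjusted p = 0.629). For the mitochondrial pair, Prdx3 to Prdx5, it was -3.13 ± 0.26 and -2.80 ± 0.41 (SD, n = 4 each; exact p = 0.229, adjusted 0.571), and the difference of 0.33 became 0.51 without 24m replicate 1 (adjusted p = 0.114) and 0.18 without 24m replicate 4. For Sod1 to Sod2 it was 2.63 ± 0.14 and 2.69 ± 0.17 (SD, n = 4 each; exact p = 0.571, adjusted 0.6), and the difference of 0.07 became -0.02 without 24m replicate 1. For Gpx1 to Gpx4 it was -2.11 ± 0.07 and -2.13 ± 0.04 (SD, n = 4 each; exact p = 0.6, adjusted 0.6), and the difference of -0.03 became 0.00493 without 6m replicate 2. With all 8 libraries the smallest p this test can give is 0.0286, or 0.114 adjusted where 1 ratio alone reaches it. A single ratio could therefore not pass, and with all 8 libraries none of the 4 reached that smallest p. Without 24m replicate 1 the 24m ratios of Prdx1 to Prdx2 lay above every 6m ratio. The gap was very small, -0.8859 in 24m replicate 2 against -0.8866 in 6m replicate 1. The ratio of Prdx3 to Prdx5 spread over 1.06 (log2) across the libraries, and that of Gpx1 to Gpx4 over 0.18.

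The members fell into profiles that were partly alike. Likeness was measured as the root mean square distance between log2 CPM profiles, each set to mean 0 and SD 1 over the 8 libraries. Gpx4 was the nearest member to Prdx2 (0.239), to Gpx1 (0.244) and to Prdx5 (0.271), while the nearest members of Prdx1, Sod2, Prdx3 and Prdx6 lay at 0.650, 0.857, 0.905 and 1.12. Over all genes tested, the nearest profile to Prdx2 was that of Tubb3, a neuronal tubulin (0.0867), and the nearest to Gpx4 was that of Eef1a2, a neuronal translation factor (0.1675). The nearest to Prdx6 was Tmed4 (0.100), to Prdx5 Tmem120a (0.148), to Gpx1 Cope (0.151) and to Sod1 Coasy (0.227). For Prdx3 it was Slc39a10 (0.257), for Sod2 Cnot4 (0.271), for Prdx1 Rps7 (0.279) and for Txn1 Tbc1d9 (0.291). Slc39a10, Cnot4 and Tbc1d9 had mean counts of only 9.5, 8 and 16, so counting error weighs heavily in their profiles. Each nearest gene was picked as the closest of all genes tested, so a small distance follows in part from that choice.

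**Figure D4:**
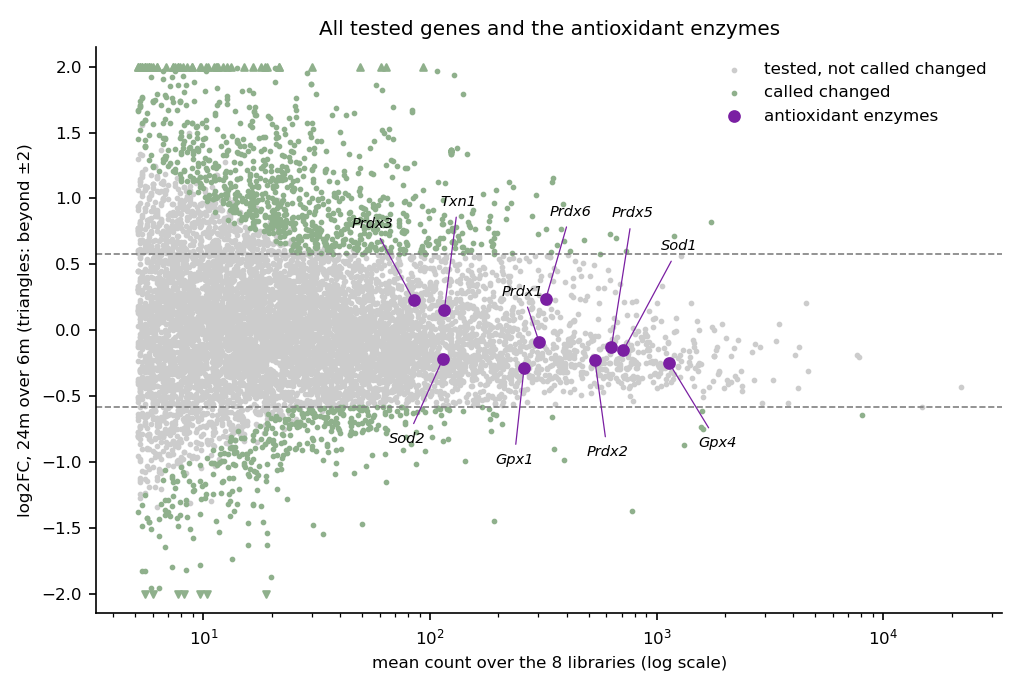
Log2 fold change (24m over 6m) against the mean count over the 8 libraries (log axis) for the 9375 genes tested, with the antioxidant enzyme genes marked; 58 genes beyond a log2FC of 2 in either direction are drawn at the edge. The members sit among the genes with many counts, close to 0.

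Around the members, 8 lists of the pathway held 101 genes, of which 86 were tested: 4 were changed and higher at 24m (Cat, Srxn1, Txndc12 and Selenop), beside 10.3% of all genes tested, and 1 was changed and lower (Cul3), beside 4.17%. DESeq2 on raw counts called 0 of these genes changed, beside 834 of all 9375 genes tested. By edgeR an adjusted p of at most 0.05, whatever the fold, was reached by 14 of the 86, beside 21.7% of all genes. The median log2FC of the 86 was -0.05, with 40 positive. Where only library sizes were used for scaling, the median of all genes tested moved to 0.10 and that of the members to -0.04, which is -0.14 relative to all genes, as with TMM; 84.5% of changed genes were then higher at 24m, against 71.2%. With library sizes alone the log2FC was -0.13 for Prdx2, -0.02 for Prdx5, -0.05 for Sod1, -0.11 for Sod2, -0.18 for Gpx1, -0.15 for Gpx4 and 0.26 for Txn1. Under quantile scaling the members' median was -0.01 and that of all genes -0.05, so that the difference between them turned to 0.04; Prdx2 was then at -0.12 and Gpx4 at -0.07.

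The other enzymes of these families included the peroxisomal enzyme catalase, Cat, which stood at 22.2, 18.1, 17.4 and 18.8 CPM at 6m and at 15.2, 30.2, 35.8 and 43.0 CPM at 24m. It was higher in 3 old mice than in any young one, and 24m replicate 1 was the lowest of all 8 libraries. The log2FC of Cat was 0.75 (SE 0.27; adjusted p = 0.0427 by edgeR), and 10 of the 16 alternatives ended the call. Among them were DESeq2, a replicate block and leaving out any 1 library other than 24m replicate 1 (adjusted p from 0.00356 to 0.2235 over the alternatives). Of the 6 genes tested in this list 1 was changed, beside 14.5% of all genes. Prdx4, the peroxiredoxin of the endoplasmic reticulum, had a log2FC of -0.51 (adjusted p = 0.0160 by edgeR), short of the fold threshold. The adjusted p of Prdx4 was 0.0682 by DESeq2 on raw counts and 0.06315 on quantile-normalized counts. It was 0.0539 with library sizes alone and 0.0667 without 6m replicate 1. Txn2, the mitochondrial thioredoxin, had one of 0.03, which became -0.02 without 6m replicate 1 and -0.03 without 6m replicate 3.

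Thioredoxin and peroxiredoxin recycling had 2 of 11 genes tested that rose, beside 10.3% of all genes. Srxn1, sulfiredoxin, repairs peroxiredoxins whose cysteine has been overoxidized, and stood at 17.2, 25.3, 21.2 and 15.1 CPM at 6m and at 24.4, 37.4, 42.2 and 33.0 CPM at 24m. The ages overlapped through 24m replicate 1 alone, which lay inside the 6m range. The log2FC of Srxn1 was 0.83 (SE 0.24; adjusted p = 0.0150 by edgeR). The call ended under 4 of the 16 alternatives, which were both DESeq2 fits and leaving out 6m replicate 4 or 24m replicate 3 (adjusted p from 0.00401 to 0.108). Txndc12, a thioredoxin-like protein of the endoplasmic reticulum, stood at 27.1, 23.5, 18.7 and 27.6 CPM at 6m and at 36.6, 34.3, 43.5 and 33.7 CPM at 24m. Every 24m library was above every 6m library. Its log2FC was 0.59 (SE 0.21; adjusted p = 0.0469 by edgeR), and 10 of the 16 alternatives ended the call. Among them were DESeq2, no filter on low counts, a replicate block and leaving out any 6m library or 24m replicate 2 or 3 (adjusted p from 0.0215 to 0.223). Of the genes with most counts in this list, Txnl1 had a log2FC of -0.22 and Txnrd2, the mitochondrial thioredoxin reductase, 0.09. Txnl1 was at -0.14 and -0.35 without 24m replicates 3 and 4. Txnrd2 was at 0.18 and 0.02 without 6m replicates 2 and 4.

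Sulfiredoxin and Prdx1 are known targets of NRF2, a transcription factor that binds antioxidant response elements, so their promoters were searched for the core of that element, written TGACNNNGC or TGAGNNNGC, on both strands. The letters were found in 30.5% of 9389 RefSeq promoters of tested protein-coding genes, in 33 of 97 promoters (34.0%) of the pathway lists, and in 2 of 12 promoters (16.7%) of the 9 members with an entry, 1 each of Prdx1 and Sod1. Prdx6 has no entry. The promoters of Prdx1 (GRCm39 chr4:116542546-116542845, plus strand, matches beginning -133 and 16 bases from the start) and of Srxn1 (chr2:151947194-151947493, plus strand, matches beginning at -158, -45 and 29) are shown with the matches in capitals, from 250 bases before the start to 50 after it. They were taken from the RefSeq table of build GRCm38.p6 and placed in GRCm39 by exact match. A match is a description of letters and not a site.
Prdx1: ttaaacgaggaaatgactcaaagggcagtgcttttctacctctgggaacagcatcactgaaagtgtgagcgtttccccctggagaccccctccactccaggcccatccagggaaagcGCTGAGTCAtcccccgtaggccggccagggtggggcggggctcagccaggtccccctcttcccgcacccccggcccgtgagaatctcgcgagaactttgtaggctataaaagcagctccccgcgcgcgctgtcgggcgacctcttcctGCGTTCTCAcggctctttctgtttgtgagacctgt
Srxn1: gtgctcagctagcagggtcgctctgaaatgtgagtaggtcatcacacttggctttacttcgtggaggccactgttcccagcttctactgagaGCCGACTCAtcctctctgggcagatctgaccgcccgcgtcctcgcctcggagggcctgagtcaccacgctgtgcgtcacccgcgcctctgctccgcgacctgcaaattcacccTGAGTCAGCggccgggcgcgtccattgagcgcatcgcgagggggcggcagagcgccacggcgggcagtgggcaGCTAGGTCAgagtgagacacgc

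Among the genes of the NRF2 pathway, 1 of the 9 tested was changed, beside 14.5% of all genes. Cul3, the ubiquitin ligase scaffold that with KEAP1 keeps NRF2 low, stood at 39.4, 45.2, 48.5 and 38.9 CPM at 6m and at 32.0, 29.1, 19.2 and 24.5 CPM at 24m. Every 24m library was below every 6m library. The log2FC of Cul3 was -0.72 (SE 0.20; adjusted p = 0.0133 by edgeR), and the call ended with DESeq2 on raw counts and without 6m replicate 3 or 24m replicate 3 (adjusted p from 0.00700 to 0.0590 over the alternatives). Park7, a redox-sensitive protein that affects NRF2, had a log2FC of -0.30 (adjusted p = 0.0138), under the fold threshold. Keap1, named after its values were seen, went the other way, with a log2FC of 0.47 (adjusted p = 0.0339), also under the fold threshold, and every 24m library above every 6m library. Sqstm1, a KEAP1-binding autophagy receptor, had a log2FC of 0.08, or 0.000268 without 24m replicate 1. It was 0.15 without 24m replicate 4, 0.19 with library sizes alone and 0.20 under quantile scaling.

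The remaining lists held 1 changed gene, Selenop, among the 16 tested of the other selenoproteins and their synthesis, beside 14.5% of all genes. Selenop carries selenium to cells, including neurons, and the supply bears on enzymes such as Gpx1 and Gpx4. It stood at 98.5, 85.0, 100.8 and 35.2 CPM at 6m and at 111, 133, 134 and 189 CPM at 24m. Every 24m library was above every 6m library, and 6m replicate 4 was far the lowest. The log2FC of Selenop was 0.85 (SE 0.21; adjusted p = 0.00447 by edgeR), and the call ended under both DESeq2 fits (adjusted p from 3.02e-07 to 0.108 over the alternatives). Selenow and Selenom, other selenoproteins, had log2FC of -0.20 and -0.13, with 0.06 for Selenow under quantile scaling. Without 24m replicate 1 they were -0.27 and -0.23, with adjusted p of 0.000849 and 0.0214. Selenof, named after its values were seen, went the other way, with a log2FC of 0.38 (adjusted p = 0.0400 by edgeR), under the fold threshold.

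No gene was changed by edgeR among the 12 tested of glutathione synthesis and recycling (Hagh -0.18, Glrx5 -0.33 in log2FC), the 15 tested glutathione transferases (Gstp1 -0.07, Gstp2 -0.14), the 10 tested of NADPH supply (Tkt -0.17, Taldo1 -0.15) and the 7 tested of a list of copper delivery genes, methionine sulfoxide reductases and the heme oxygenase Hmox2 (Cox17 -0.32, Atox1 -0.39). Gstp1 turned to 0.03 with library sizes alone and to 0.11 under quantile scaling, and was -0.17 without 24m replicate 1, where Gstp2 was -0.23 (adjusted p = 0.0277). Without 6m replicate 1, Gstp1 was -0.00571 and Gstp2 -0.07. In these lists 5, 0, 1 and 4 genes had an unadjusted p under 0.05, beside 34.3% of all genes. DESeq2 called 0 changed, beside 834 of all 9375 genes tested. By adjusted p alone, 2, 0, 1 and 2 genes were at or under 0.05, beside 21.7% of all genes. These were Glrx5 and, chosen after their values were seen, Glo1 (0.54 in log2FC) and Idh2 (-0.44), with Atox1 and Cox17. Atox1, the copper chaperone that feeds the secretory pathway, and Cox17, the one that feeds cytochrome oxidase, had adjusted p of 0.0153 and 0.0324. With library sizes alone the adjusted p was 0.0713 for Atox1, 0.141 for Cox17 and 0.136 for Glrx5. DESeq2 on raw counts gave 0.03475 for Atox1, 0.07435 for Cox17 and 0.0837 for Glrx5.

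**Figure D5:**
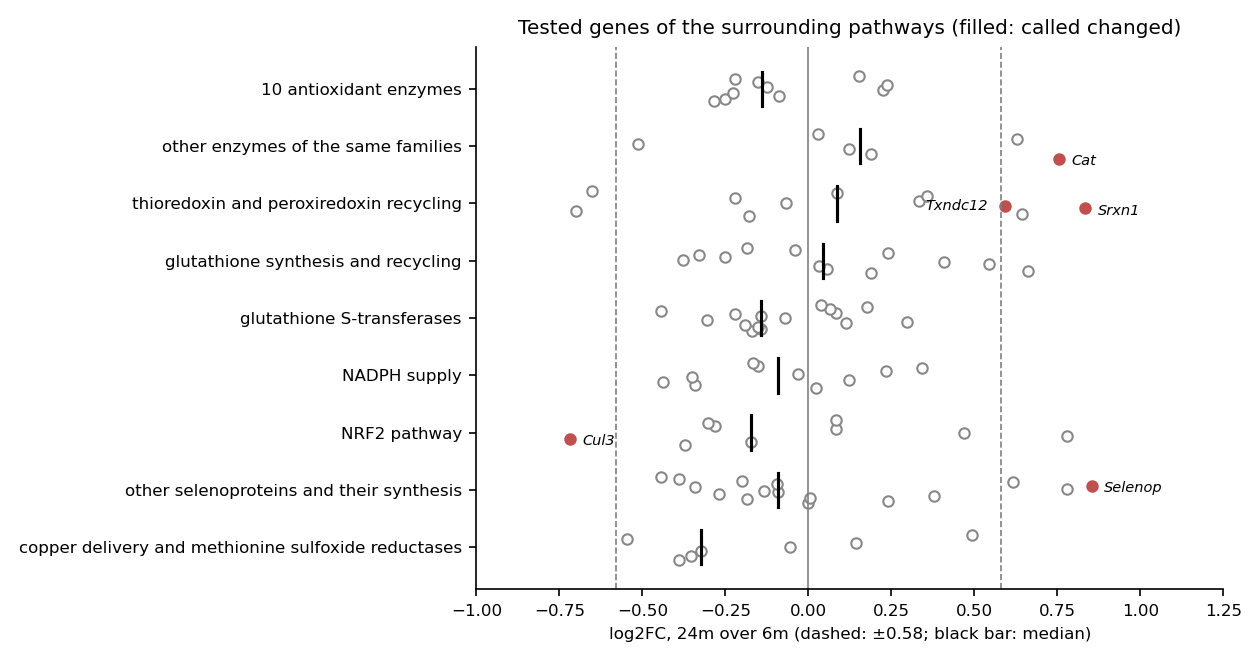
Log2 fold change (24m over 6m) of every tested gene in the 8 lists of the pathway and in the antioxidant enzymes; filled points are changed genes, black bars are medians and dashed lines mark a log2FC of 0.58 in either direction. Changed genes are Cat, Srxn1, Txndc12 and Selenop on the higher side and Cul3 on the lower side.

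Markers of the cell types in a hemisphere were read in the same libraries, and their part in the results for the antioxidant enzymes was not tested. Counts of markers changed by edgeR stand beside 10.3% (higher) and 4.17% (lower) of all genes tested. Counts by DESeq2 stand beside 834 of the 9375 genes tested, in either direction. Red blood cells are rich in Prdx2 and catalase. All 5 of their markers (Hba-a1, Hba-a2, Hbb-bs, Hbb-bt and Alas2) were changed and lower at 24m by edgeR, and DESeq2 called 4; their summed level was 6998, 7943, 10032 and 6090 CPM at 6m and 6283, 3958, 4476 and 3350 CPM at 24m. The sum of 24m replicate 1 lay inside the 6m range, and the other 3 of 24m lay below it. The same 3 libraries lay below the 6m range for Prdx2, Prdx5, Sod1, Gpx1 and Gpx4, and above it for Prdx6, Txn1 and Cat. Whether blood content bears on any of these levels was not tested. Hba-a1 and Hba-a2, which are near-identical, had nearly equal counts (1820 and 1786 in 6m replicate 1), so the sum may count some reads for both; Hbb-bs and Hbb-bt are near-identical as well. The most abundant, Hba-a1, had a log2FC of -0.75 (SE 0.14; adjusted p = 0.000471 by edgeR), and quantile scaling ended that call (adjusted p from 7.43e-14 to 0.114 over the alternatives).

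Of the 7 tested of 8 astrocyte markers, 3 were changed and higher (Gfap 1.94, Slc1a3 1.65 and Gja1 1.42 in log2FC) and 1 changed and lower (Slc1a2 -0.59), all 4 named after their values were seen; DESeq2 called 3. Their summed level was 3019, 2551, 2693 and 3034 CPM at 6m and 3298, 2832, 2677 and 2563 CPM at 24m, so the ages overlapped. Aldoc, the most abundant, had a log2FC of -0.13, or 0.11 under quantile scaling and -0.23 (adjusted p = 0.0135) without 24m replicate 1. Of 8 neuron markers 2 were changed and higher (Snap25 0.77 and Thy1 0.68 in log2FC, also named after their values were seen; DESeq2 called 1), with sums of 4298, 4470, 4563 and 4459 CPM at 6m and 5094, 5179, 5436 and 4860 CPM at 24m. The ages did not overlap, and Nrgn, the most abundant, had a log2FC of 0.07, or 0.32 (adjusted p = 0.0313) under quantile scaling, and 0.01 and 0.13 without 24m replicates 3 and 4. Tubb3, the gene with the nearest profile to Prdx2, is also in this list, and its log2FC was -0.30 (adjusted p = 0.0353), short of the fold threshold. Of 7 oligodendrocyte markers 1 was changed and higher (Mbp; DESeq2 also called 1), with sums of 2421, 1975, 2093 and 2534 CPM at 6m and 3555, 3168, 3501 and 2657 CPM at 24m. This list was shortened by 1 gene after its values were seen, so its counts and sums rest on the shortened list. Every 24m sum was above every 6m sum, and Mbp, the most abundant, had a log2FC of 0.72 (adjusted p = 0.000250 by edgeR). Its ages overlapped, with 1314 CPM in 24m replicate 4 and 1346 CPM in 6m replicate 4. The log2FC was positive for 5 of the 7 markers and negative for Opalin (-0.27) and Mag (-0.08), both named after their values were seen.

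Of the 6 tested of 8 microglia markers 1 was changed and higher (Tmem119, 1.03 in log2FC, named after its value was seen; DESeq2 called 0), with sums of 675, 718, 736 and 745 CPM at 6m and 1084, 854, 925 and 845 CPM at 24m. Every 24m sum was above every 6m sum; C1qa, the most abundant, had a log2FC of 0.47, which passed the threshold without 24m replicate 4 (0.58, adjusted p = 0.00201), and Cx3cr1 had at most 3 counts in every library. Of the 5 tested of 6 choroid plexus and ependymal markers 0 were changed by edgeR or DESeq2 (2 at an unadjusted p under 0.05, beside 34.3% of all genes), with sums of 4692, 3135, 3337 and 4421 CPM at 6m and 4687, 4339, 2456 and 2722 CPM at 24m. Ttr, the most abundant, had a log2FC of -0.11, which turned to 0.15 under quantile scaling and to 0.01, 0.05 and 0.03 without 6m replicate 1, 24m replicate 3 and 24m replicate 4. Of 7 endothelial markers 2 were tested and 0 were changed by edgeR or DESeq2 (1 at an unadjusted p under 0.05), with sums of 123, 94.0, 122 and 105 CPM at 6m and 94.5, 79.0, 98.5 and 69.8 CPM at 24m. Ly6c1, the most abundant, had a log2FC of -0.578 (adjusted p = 0.0150), just inside the fold threshold. It passed without 6m replicate 2 (-0.60), 6m replicate 3 (-0.59), 24m replicate 1 (-0.63) or 24m replicate 3 (-0.69). Without 24m replicate 4 the log2FC of Ly6c1 was -0.42 (adjusted p = 0.0730). DESeq2 gave it an adjusted p of 0.0567 on raw counts and 0.0601 on quantile-normalized counts. Flt1 and Tek had at most 3 counts in every library, a floor that lay between 2.30 and 5.42 CPM.

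Some counts may include reads of other loci. Near-identical copies elsewhere in the genome (at least 95% identity over at least 50% of the coding sequence) are annotated for 4 members, at 2 places each for Prdx1 and Gpx4 and 1 each for Prdx2 and Sod1, and none of the copies is in the table. Exons of 9 members (not Prdx3) overlap an exon of a gene on the opposite strand, in Gpx1 over 1232 of 1445 bases, and whether strand was used in counting is not stated. Gstp1, Gstp2, Taldo1, Ly6c1, Hba-a1, Hba-a2, Hbb-bs and Hbb-bt have a near-identical copy in the table. Opposite-strand overlaps also exist for Txn2, Prdx4, Srxn1, Txnl1, Txnrd2, Hagh, Tkt, Sqstm1, Selenop, Selenom, Nrgn, Mbp and Ttr, and Tkt and Cox17 overlap a gene on their own strand.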

How the data were processed

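Gene counts for 8 mouse brain libraries were deposited as a table of integer counts; per the labels, the authors aligned reads to GRCm39 with minimap2 2.24. Genes were matched by Ensembl identifier to GENCODE vM39 (22281 matched, 149 not), and 5754 genes had no count in any library. Counts were fitted in edgeR 4.0.16 (R 4.3.3, limma 3.58.1) with TMM scaling and the quasi-likelihood test, age as the only term, on genes with a mean count over 5 (9375 genes). Library totals ran from 573152 to 1255424; counting error of a member's count in a library was 2.60% to 14.1%, and floors cover counting error only. The fitting was tested on simulated data, and no outcome of that test is given here. The alternatives tried were DESeq2 1.42.0 on raw and on quantile-normalized counts, RLE size factors, library sizes alone, no filter, filterByExpr, mitochondrial genes left out, a replicate block, a pseudocount of 2 for the ratios and each library left out in turn. Members and lists were chosen with earlier results of these data known, and the list of oligodendrocyte markers was shortened by 1 gene after its values were seen. Named genes were the members; from each pathway list the changed genes (up to 3, smallest adjusted p first) and the 2 with most counts; the most abundant gene of each marker list; and the nearest profile to each member. Copies were sought with BLAST+ 2.17.0, and figures drawn with Python 3.11.15 and matplotlib 3.10.9.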

Additional observations from a re-analysis of the deposited data

Results flagged for a closer look

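In each group of 4 libraries, a value was singled out where the gap to its nearest neighbour took up a larger share of the group's range than the 95% critical value of Dixon's test. Of 100 groups examined, 8 were singled out, where chance gives about 5. The total of 6m replicate 2 was 573152 counts, against 818963 to 843706 in the other 6m libraries. In 24m replicate 1, Prdx2 stood at 732 CPM, against 554 to 561 in the other 24m libraries. In the same library, Prdx5 stood at 919 CPM (others 671 to 689), Gpx4 at 1642 CPM (others 1135 to 1191) and Gstp2, a glutathione transferase, at 777 CPM (others 586 to 614). These 4 values come from 1 library that also stood apart on the second principal component. Sod1 in 24m replicate 2 stood at 718 CPM, below the other 24m libraries (842 to 851). Txn1 in 6m replicate 1 stood at 109.5 CPM, below the other 6m libraries (136 to 138). Cox17 in 6m replicate 4 stood at 254 CPM, below the others (279 to 284). The causes were not tested.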

How the results depend on the processing

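The count of antioxidant enzymes changed was 0 in either direction under every alternative tried, by edgeR and by DESeq2; with all libraries 4 had an unadjusted p under 0.05 by edgeR, beside 34.3% of all genes. The number of genes changed, 1359, became 834 with DESeq2 on raw counts, 819 with DESeq2 on quantile-normalized counts, and 989 to 1594 when 1 library was left out; by adjusted p alone it was 2038. The members' median log2FC, -0.14, became -0.0369 with library sizes alone and -0.0122 with quantile scaling, and lay between -0.16 and -0.09 when 1 library was left out. The number of members with an adjusted p of at most 0.05, added after seeing the data, was 0. It became 1 (Prdx6) with library sizes alone, with mitochondrial genes left out, with filterByExpr and with DESeq2 on quantile-normalized counts, and 0 to 5 when 1 library was left out. Libraries of the same replicate number were not more alike than others (correlations from -0.16 to 0.06, against -0.10 to 0.11 for other pairs). A replicate block gave 1308 genes changed. By adjusted p alone the same fit had 2 members (Gpx1 and Gpx4) at or under 0.05, beside 1977 of all 9375 genes tested.

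Directions turned as follows, and the cause was not tested. With library sizes alone the log2FC of Prdx1 was 0.0155 and that of Gstp1 0.0322. Under quantile scaling Prdx5 was 0.0385, Sod1 0.0223, Gstp1 0.11, Selenow 0.0608, Aldoc 0.11 and Ttr 0.15. Txn2 was -0.02 without 6m replicate 1 and -0.0310 without 6m replicate 3; Ttr was 0.00663, 0.0474 and 0.03 without 6m replicate 1, 24m replicate 3 and 24m replicate 4, and -0.269 without 24m replicate 1. When 1 library was left out, the difference in the log2 ratio of Gpx1 to Gpx4 ran from -0.0473 to 0.00493 and that of Sod1 to Sod2 from -0.0185 to 0.11. The other log2FC of members kept their direction and their side of the threshold in 157 comparisons with an alternative. Of the log2FC of other named genes, 403 did so, 30 no longer passed the threshold and 5 passed it where they had not (Ly6c1 in 4 and C1qa in 1). Leaving out 1 library moved the log2FC of the pathway and marker genes named by the rule and not changed by at most 0.164 (Ttr). Depth limits the members with fewest counts: counting error ran from 2.60% to 14.1% of a count in a library.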
